A study of Mus musculus with 96 samples.

Results

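The calcium-activated and inward rectifier potassium channels were followed through 10 genes in single neurons of the lateral superior olive (LSO), an auditory brainstem nucleus. The members were Kcnn1, Kcnn2 and Kcnn3, which encode small-conductance calcium-activated (SK) channels, Kcnma1 and Kcnmb4, which encode the pore and a beta subunit of the large-conductance (BK) channel, and the inward rectifier genes Kcnj3, Kcnj6, Kcnj9, Kcnj10 and Kcnj11. They were chosen by gene symbol and were 10 of the 38887 genes in the deposited table. Each library held the cytoplasm of 1 neuron, drawn into the patch pipette after a whole-cell recording in a slice from an untreated wild-type C57BL/6J mouse of either sex in the second postnatal week, around hearing onset. The firing label divided the neurons into Onset, Sustained and LOC cells. Onset and Sustained cells were pooled as principal LSO neurons (pLSOs), whose axons ascend to the midbrain, and LOCs are lateral olivocochlear neurons, whose axons descend to the cochlea. Negative controls were pipettes that had touched the slice without entering a cell. Of 86 labelled neurons and 10 controls, 80 neurons (41 Onset, 11 Sustained and 28 LOC) and 8 controls were used, because for the remaining 8 libraries the label and the study's own grouping or values differed.

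SK and BK channels open when calcium enters a neuron, and potassium leaving through them ends or follows the action potential. SK channels sense calcium through bound calmodulin and contribute to the afterhyperpolarization that follows a spike, whereas BK channels need both calcium and depolarization and shorten the spike itself. Inward rectifiers pass potassium near the resting potential. Kcnj3 (Kir3.1), Kcnj6 (Kir3.2) and Kcnj9 (Kir3.3) form the GIRK channels that G protein-coupled receptors open, Kcnj10 (Kir4.1) is best known from glia, and Kcnj11 (Kir6.2) is the pore of the ATP-sensitive (KATP) channel.

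The pore-forming members share the potassium channel signature, a short stretch that lines the selectivity filter. It is shown for 5 members with a measured value, because it makes visible how close the members are to each other. Each line gives 27 bases of the coding strand, 5′ to 3′, from the Gencode vM21 transcripts, and the 9 capitals are the codons for glycine, tyrosine and glycine. The stretches lie unbroken in a coding exon on GRCm38 (mm10), at chr8:70850651-70850677 (minus strand) for Kcnn1, chr14:23528407-23528433 (minus) for Kcnma1, chr2:55437621-55437647 (plus) for Kcnj3, chr1:172326178-172326204 (minus) for Kcnj9 and chr1:172369296-172369322 (plus) for Kcnj10.
Kcnn1: ttcttgtccattGGCTATGGAgacatg
Kcnma1: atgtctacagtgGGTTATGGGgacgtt
Kcnj3: gaggccaccatcGGCTATGGCtaccgc
Kcnj9: gagaccaccatcGGCTATGGGcaccgg
Kcnj10: cagaccaccatcGGCTATGGCttccgc
Kcnj3 shared 24 of 27 bases with Kcnj10 and 23 with Kcnj9, while Kcnn1 shared 13 to 15 bases with any of these 3 inward rectifiers and 15 with Kcnma1. Kcnmb4 encodes an accessory subunit, and no such stretch was found in its coding sequence.

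The libraries were shallow enough for depth to bear on every value. A pLSO library held a median of 2560.5 genes at 1 TPM (a transcript count normalised to gene length and depth) or more and a LOC library 2394, against 821 in the controls. The deposited TPM were whole numbers, and the low values of 94 of 96 libraries were all whole multiples of a unit, which gave an estimate of the reads: a median of 883638 in pLSOs, 724056 in LOCs and 34951.1 in the controls that gave a unit. The markers of the classes followed the labels. The summed TPM of 6 pLSO markers ranged from 15 to 1468 (median 518.5) in pLSOs and from 0 to 148 (median 2) in LOCs, and that of 6 LOC markers from 20 to 4761 (median 1213) in LOCs and from 0 to 58 (median 0) in pLSOs. These markers were known from earlier results of the same neurons, and libraries whose label and the study's grouping or values differed had been left out. The match of markers and labels therefore does not test the labels. The 6 neuronal markers summed to between 112 and 6898 TPM in every neuron and to between 394 and 11497 TPM in the controls, so the controls also held neuronal RNA.

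The value of 1 read differed widely between the members and decided what a 0 means for each. Between rows 2500 and 9500 of the deposited table, where steps between values could be measured in 15 windows, the step shrank down the table in the way that gene lengths sorted from short to long would give in 13 of them, while the windows at rows 7500 and 8500 departed from this. In the first rows the step did not follow the length of the gene itself. Kcnn3 has 10451 exon bases and Kcnn1 has 4587, yet 1 read was worth more TPM for Kcnn3. Kcnj11 was listed at 0 in every library, so its step was not seen and rests on the sorted lengths. By this estimate 1 read was worth, in the median neuron, 25.9 TPM for Kcnn3 and 17.3 TPM for Kcnn1, which stand in rows 139 and 503 of the table. It was worth 0.518 TPM for Kcnj3, 0.0999 TPM for Kcnj9, 0.0488 TPM for Kcnn2, 0.0370 TPM for Kcnma1 and 0.00656 TPM for Kcnj11. A value under 0.5 TPM is listed as 0, so a 0 for Kcnn1 or Kcnn3 meant that no read had been sampled. For the other members it could hide reads, up to about 10.2 for Kcnn2, 13.5 for Kcnma1, 10.4 for Kcnmb4, 6.90 for Kcnj6, 7.38 for Kcnj10 and 76.2 for Kcnj11 in the median neuron. Levels are therefore compared between genes only in own-length TPM, for which the estimated reads were divided by the exon length of the gene in question, and for the members in late rows (Kcnn2, Kcnma1, Kcnmb4, Kcnj6, Kcnj9, Kcnj10 and Kcnj11) that scale was extrapolated. The marker sums are an exception, because they add deposited TPM, in which genes of early rows weigh more per read. The differences of mean log2(TPM + 1) and their percentiles also use deposited TPM unless the own-length scale is named.

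**Figure D1:**
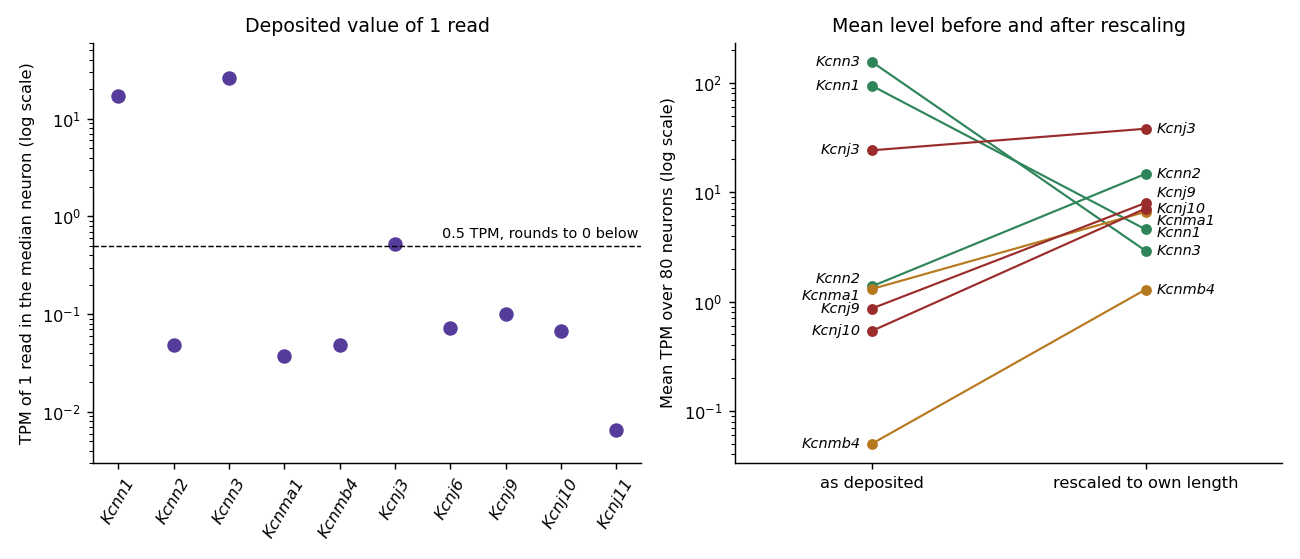
Left, estimated TPM that 1 read contributed for each member in the median neuron (log axis), with the 0.5 TPM limit below which a value is listed as 0. Right, mean TPM over 80 neurons (log axis) as deposited and as own-length TPM, for the 8 members with a value (green SK, ochre BK, red inward rectifiers); Kcnn3 and Kcnn1 led as deposited and Kcnj3 and Kcnn2 after rescaling.

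The order of the members by mean level changed with this rescaling. As deposited, the mean over the 80 neurons was 155 TPM for Kcnn3, 94.0 TPM for Kcnn1 and 24.1 TPM for Kcnj3, and the remaining members stood at 1.38 TPM or less. Rescaled to own length, Kcnj3 came first with a mean of 37.9 TPM, followed by Kcnn2 with 14.7, Kcnj9 with 7.96, Kcnj10 with 7.08, Kcnma1 with 6.60, Kcnn1 with 4.57, Kcnn3 with 2.91 and Kcnmb4 with 1.29 rescaled TPM. By the share of neurons at 1 TPM, Kcnn2 and Kcnj3 tied for the first place, each in 19 of 80 neurons (23.8%). In the median neuron a listed value needs about 10.2 reads of Kcnn2 but 0.965 of Kcnj3. At 10 estimated reads or more Kcnn2 stayed in 15 pLSOs and 4 LOCs, and Kcnj3 was in 8 pLSOs and 7 LOCs. The SD over the 80 neurons ran from 9.53 rescaled TPM for Kcnmb4 to 134 for Kcnj3. It exceeded the gap between neighbours at each step of the order by mean level. It is a spread over single neurons and not the error of a mean, so it does not settle the order. The means from Kcnj9 to Kcnn3 rest on 5 to 7 neurons each. The labels name no animals, so every group counts as 1 sample, no test was made between groups, and intervals cover counting error only.

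**Figure D2:**
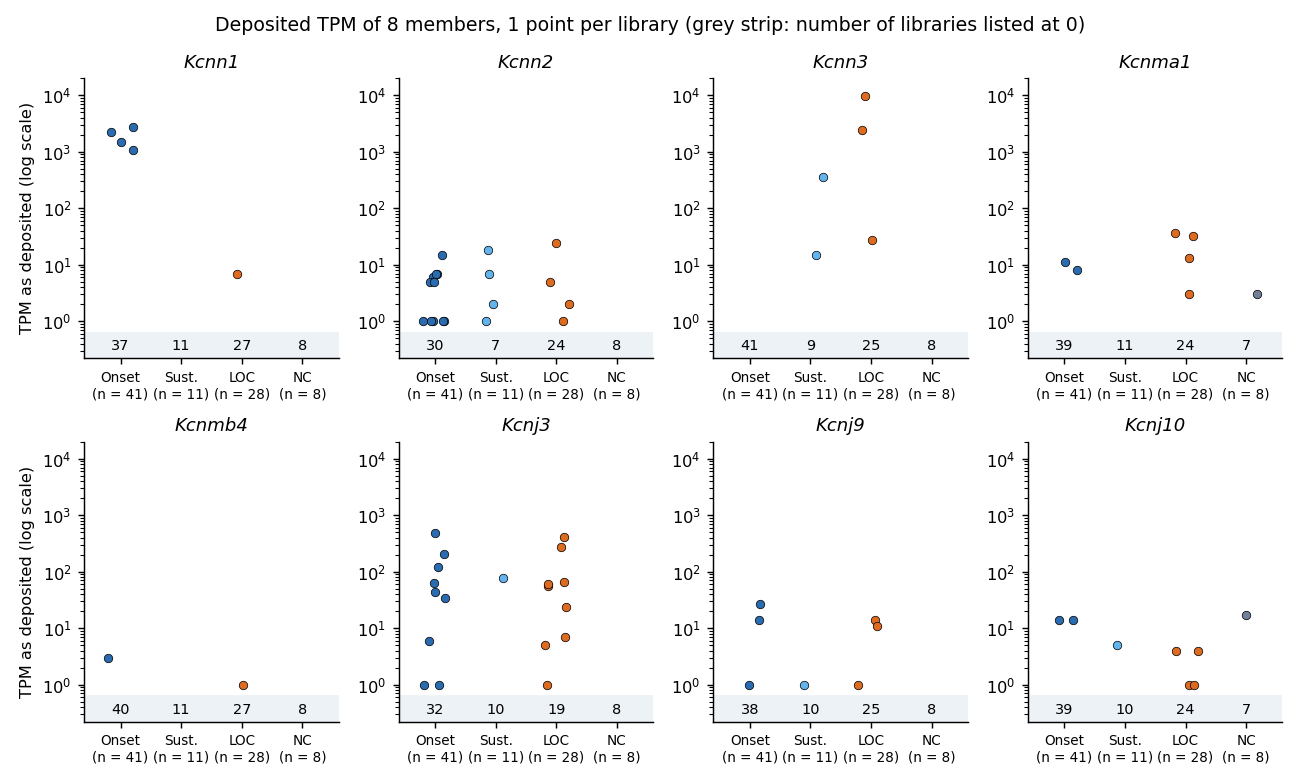
Deposited TPM (log axis) of 8 members by group, 1 point per library with a value, and in the grey strip the number of libraries listed at 0; NC are the negative controls. The 4 Onset neurons with Kcnn1 lie at 1076 TPM or above, and Kcnn2 stays at 24 TPM or below in every group.

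Kcnn1 was a gene of few neurons and high deposited values. Kcnn1 encodes SK1 and lies on the minus strand of chromosome 8. An annotated gene on the plus strand overlaps it, so that its reads may be counted in part with Kcnn1. Kcnn1 was listed in 4 of 52 pLSOs (7.69%, exact Clopper-Pearson 95% interval 2.14 to 18.5%), all of them Onset cells, with 1076, 1503, 2228 and 2704 TPM. These values correspond to about 63.0, 145, 339.98 and 316 reads. The other 48 pLSOs, the 11 Sustained cells among them, were at 0, which allows a share of up to 27.3% of Sustained cells. Among the LOCs 1 of 28 had a value (3.57%, 0.0904 to 18.3%), and its 7 TPM was the worth of 0.972 reads. The 8 controls were at 0. The mean was 144 ± 535 TPM (SD over 52 neurons) in pLSOs and 0.25 ± 1.32 TPM in 28 LOCs, and without the highest neuron the pLSO mean fell to 94.3 TPM. In own-length units the pLSO mean was 7.02 TPM.

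Kcnn2 was the most widespread calcium-activated member. Kcnn2 encodes SK2 and lies on chromosome 18, where a processed pseudogene and an antisense gene overlap it, so that their reads may be counted in part with it. It was found in 15 of 52 pLSOs (28.8%, 17.1 to 43.1%) and in 4 of 28 LOCs (14.3%, 4.03 to 32.7%), intervals that overlap. The pLSO values ran from 1 to 18 TPM with a median of 5 among the 15 neurons, and the LOC values were 1, 2, 5 and 24 TPM. Within the pLSOs, 11 of 41 Onset cells (26.8%) and 4 of 11 Sustained cells (36.4%) had it. The pLSO mean was 1.50 ± 3.64 TPM and the LOC mean 1.14 ± 4.59 TPM, and 75.0% of the LOC sum came from 1 neuron. Without that neuron the LOC mean was 0.296 TPM, so the ratio of the classes depended on a single cell. On the own-length scale pLSOs had a mean of 15.1 TPM and LOCs one of 13.9 TPM, the latter falling to 3.63 without its highest neuron. The reads behind a value ranged from 14.6 to 549 in pLSOs, and no control was above 0.

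Kcnn3 was listed in 5 of 80 neurons, and 1 LOC held most of its sum. Kcnn3 encodes SK3 and lies on chromosome 3. It was listed in 3 of 28 LOCs (10.7%, 2.27 to 28.2%) at 27, 2410 and 9622 TPM, and in 2 of 52 pLSOs (3.85%, 0.469 to 13.2%) at 15 and 357 TPM. Both pLSOs were Sustained cells, and the 41 Onset cells were at 0, which allows a share of up to 7.32%. The values of 27 and 15 TPM were worth 1.01 and 0.976 reads, so that neurons with more than a single read numbered 2 LOCs, with 129 and 497 reads, and 1 Sustained cell with 28 reads. The LOC mean of 431 ± 1858 TPM rested on 1 neuron, which held 79.8% of the sum, and without it the mean was 90.3 TPM. The pLSO mean was 7.15 ± 49.5 TPM and 0.294 TPM without its highest neuron. After rescaling, the means were 8.09 TPM in LOCs (1.53 without the highest neuron) and 0.122 TPM in pLSOs. The Sustained cell with 357 TPM had the most detected genes of all neurons, 6276.

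**Figure D3:**
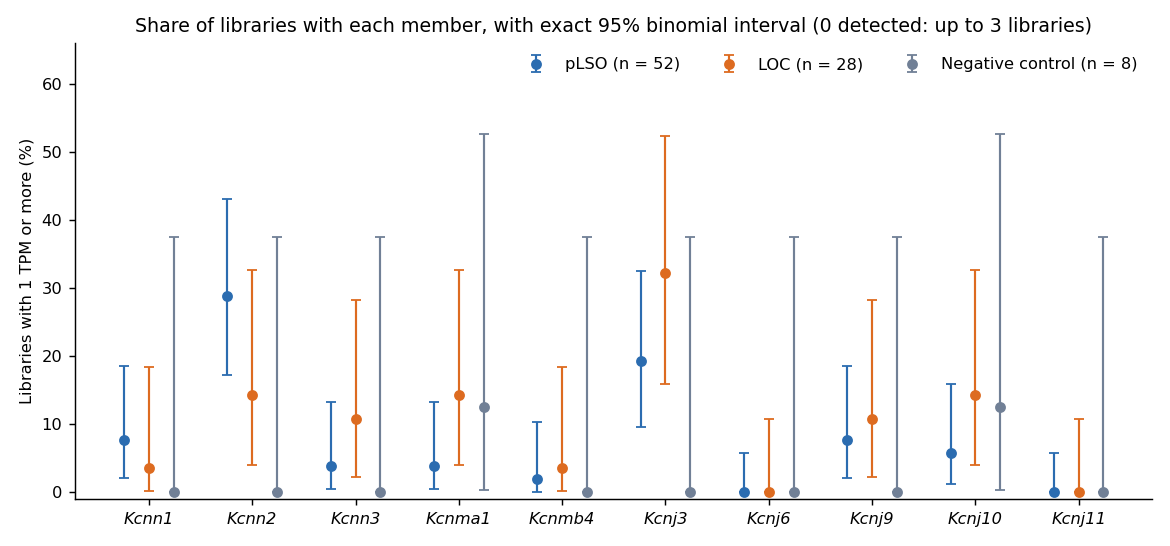
Share of libraries with 1 TPM or more of each member (vertical axis, percent) in 52 pLSOs, 28 LOCs and 8 negative controls; bars are exact 95% binomial intervals, and for 0 detected they run to the share of 3 libraries. The intervals of pLSOs and LOCs overlap for all 10 members, and those of the controls are wide.

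The BK members were rare. Kcnma1, on chromosome 14, encodes the BK pore, and it was listed in 2 of 52 pLSOs (3.85%, 0.469 to 13.2%) and in 4 of 28 LOCs (14.3%, 4.03 to 32.7%). The pLSO values were 8 and 11 TPM, both in Onset cells, and the LOC values were 3, 13, 33 and 36 TPM. The pLSO values lie within the range of the LOC values. An estimated 43.6 to 1708 reads stood behind them, and 1 control was listed at 3 TPM, worth 3.65 reads. The pLSO mean was 0.365 ± 1.87 TPM and the LOC mean 3.04 ± 9.24 TPM, and without the highest neuron of each class they were 0.157 and 1.81 TPM. Kcnmb4 encodes the beta4 subunit, the neuronal partner of the BK pore. On chromosome 10 its span is overlapped by 2 antisense genes, whose reads may be counted in part with Kcnmb4. The overlaps given for the members are those of whole gene spans, and shared exons were not looked at. Kcnmb4 was listed in 1 Onset cell at 3 TPM and in 1 LOC at 1 TPM. Pore and beta subunit met in 1 of 80 neurons, a LOC with 33 TPM of Kcnma1 and 1 TPM of Kcnmb4.

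Kcnj3 was the leading inward rectifier. Kcnj3 lies on chromosome 2, with a noncoding gene on the opposite strand, and encodes the GIRK subunit Kir3.1, which needs a partner subunit to reach the membrane. It was found in 10 of 52 pLSOs (19.2%, 9.63 to 32.5%) and in 9 of 28 LOCs (32.1%, 15.9 to 52.4%). The pLSO values were 1, 1, 6, 34, 43, 63, 77, 121, 202 and 483 TPM, the 77 TPM being that of the only Sustained cell. The LOC values were 1, 5, 7, 24, 55, 60, 65, 276 and 405 TPM. The values of both classes covered the same span, with medians among positive neurons of 53 and 55 TPM. Zeros included, the pLSO mean was 19.8 ± 74.3 TPM and the LOC mean 32.1 ± 90.9 TPM, and without the highest neuron of each class it was 10.7 and 18.3 TPM. Rescaled to own length the means were 30.5 and 51.8 TPM. At least 10 estimated reads stood behind 8 of the 10 pLSO values and 7 of the 9 LOC values, and the 8 controls were at 0.

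The GIRK partners were rarer than Kcnj3 or not listed at all. Kcnj9, on chromosome 1, was found in 4 of 52 pLSOs (7.69%, 2.14 to 18.5%), 3 of them Onset cells with 1, 14 and 27 TPM and 1 a Sustained cell with 1 TPM. It was found in 3 of 28 LOCs (10.7%, 2.27 to 28.2%) with 1, 11 and 14 TPM. Kcnj6, on chromosome 16, was listed at 0 in all 80 neurons and all controls, which allows a share of up to 5.77% of pLSOs and 10.7% of LOCs with a value of 1 TPM or more. A neuron with fewer than about 6.90 reads of Kcnj6 would also be listed at 0. Kcnj3 and Kcnj9 occurred together in 2 LOCs and in 0 of 52 pLSOs. In all, 17 of the 19 neurons with Kcnj3 had neither Kcnj6 nor Kcnj9 in the table. In the median neuron a listed value needs about 5.01 reads of Kcnj9 and 6.90 of Kcnj6, against 0.965 of Kcnj3. These 2 partners are therefore missed more easily than Kcnj3.

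Kcnj10 appeared in a few neurons of each class and in a control. Kcnj10, on chromosome 1, was found in 3 of 52 pLSOs (5.77%, 1.21 to 15.9%) at 5, 14 and 14 TPM and in 4 of 28 LOCs (14.3%, 4.03 to 32.7%) at 1, 1, 4 and 4 TPM. The highest deposited value of all libraries was that of 1 control, with 17 TPM from about 11.3 reads. On the own-length scale this control had 96.7 TPM, above 5 of the 7 neurons and below the 2 Onset cells with 204 and 198 TPM. That level rests on few reads in a library with 325 detected genes. The estimated reads behind the values of the 7 neurons ran from 12.2 to 574. In the 7 neurons with Kcnj10 the summed level of 7 astrocyte markers was 58, 1097, 2131, 2268, 2909, 2922 and 2977 TPM. Over all neurons the same sum spanned 0 to 23866 TPM with a median of 690.5, and all but the lowest of the 7 values lay above that median. Of these markers, Aldh1l1 and Gja1 were at 0 in all LOCs and found in 4 and 2 pLSOs. Slc1a2 was found in 10 of 28 LOCs (35.7%) and 24 of 52 pLSOs (46.2%). Gfap was in 7 LOCs (25.0%) and 15 pLSOs (28.8%), and Aldoc in 20 LOCs (71.4%) and 39 pLSOs (75.0%). Slc1a3 and Aqp4 had the higher share in LOCs, each in 9 (32.1%), beside 13 (25.0%) and 12 (23.1%) of the pLSOs. The median of the summed astrocyte markers was lower among LOCs, 281.5 TPM beside 740 TPM for pLSOs. The highest sum, 23866 TPM, was that of a LOC. The mean of Slc1a2 was 1102 TPM in LOCs (644 without the highest neuron) and 239 TPM in pLSOs, and that of Slc1a3 was 131 TPM in LOCs (46.1 without the highest) and 45.5 TPM in pLSOs (24.1 without the highest). The control with Kcnj10 had 0 of the 7 astrocyte markers and 5909 TPM over 6 oligodendrocyte markers, which in the 7 neurons summed to between 305 and 25765 TPM. The astrocyte and oligodendrocyte sums add deposited TPM, so genes in early rows weigh most per read, such as Slc1a2 (row 805) and Cnp (row 1065). They do not measure the amount of glial RNA. The part of glial RNA in the Kcnj10 values was not tested. Kcnj16, the subunit with which Kcnj10 assembles in glia, was listed at 0 in every neuron.

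The genes of the KATP channel were listed in few neurons or none. Kcnj11, a gene of chromosome 7, was listed at 0 in all 80 neurons and all controls, and at 76.2 reads per 0.5 TPM this row is the least sensitive of the members. Its regulatory subunit genes Abcc8 (SUR1) and Abcc9 (SUR2) were found in 2 and 1 of 52 pLSOs and in 0 of 28 LOCs.

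Of the 48 neurons with a member, 30 had only 1 of them. At least 1 member was found in 29 of 52 pLSOs (55.8%, 41.3 to 69.5%) and in 19 of 28 LOCs (67.9%, 47.6 to 84.1%). The mean number per neuron was 0.788 ± 0.848 (SD, 52 neurons) in pLSOs and 1.04 ± 0.922 (28 neurons) in LOCs. The difference was smaller than the SD over single neurons, which is not the error of a mean. No neuron had more than 3 members. Of the 8 controls, 1 had any, namely Kcnma1 and Kcnj10 together. SK genes were found in 18 of 52 pLSOs (34.6%) and 8 of 28 LOCs (28.6%), and GIRK genes in 14 pLSOs (26.9%) and 10 LOCs (35.7%). The number of members per neuron had a Spearman correlation of 0.0965 with the number of detected genes over 52 pLSOs and of 0.273 over 28 LOCs. Both measures come from the same library and share its depth.

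**Figure D4:**
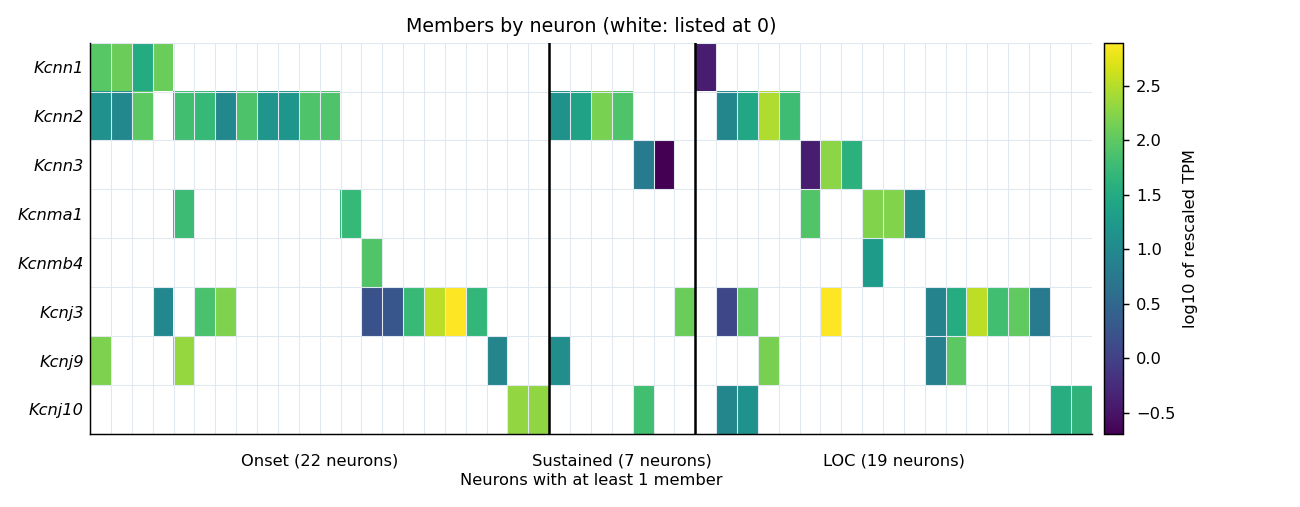
The 48 neurons with at least 1 member (columns, by group) against the 8 members with a value (rows), coloured by log10 of own-length TPM, and white where a member is listed at 0. Kcnn2 and Kcnj3 run through all 3 groups, and most columns hold a single coloured cell.

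The combinations were varied. Kcnj3 alone was the most frequent, in 10 neurons (6 pLSOs and 4 LOCs), followed by Kcnn2 alone in 9 neurons (8 pLSOs and 1 LOC). Of the 4 Onset neurons with Kcnn1, 3 also had Kcnn2. The 5 neurons with Kcnn3 had no Kcnn2, and 2 LOCs held Kcnn2, Kcnj3 and Kcnj10 together. Kcnn2 and Kcnj3 met in 2 pLSOs and in those 2 LOCs. These counts are small, and a member listed at 0 may have been missed in that neuron.

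Between pLSOs and LOCs no member differed by 1 or more in mean log2(TPM + 1), the size used here to call a difference. Of 10319 genes found in at least 5% of neurons, 11.7% differed by that much, 6.99% with the higher mean in pLSOs and 4.68% with the higher mean in LOCs. The 7 members that passed this filter were Kcnn1, Kcnn2, Kcnn3, Kcnma1, Kcnj3, Kcnj9 and Kcnj10, while Kcnmb4, Kcnj6 and Kcnj11 were found too rarely. On the deposited scale Kcnn1 had the largest positive difference, 0.72 (0.83 in pLSOs and 0.11 in LOCs), at percentile 88.2 of the genes tested. Kcnn2 followed with 0.28. The differences were -0.81 for Kcnn3 (percentile 6.80), -0.65 for Kcnj3 (percentile 9.27), -0.45 for Kcnma1, -0.10 for Kcnj9 and -0.04 for Kcnj10. The median over the 7 members was -0.10, against 0.07 over all genes tested. On the own-length scale the order of the members changed, with 0.71 for Kcnn2 and 0.47 for Kcnn1. There Kcnj3 stood at -0.70, Kcnma1 at -0.65, Kcnn3 at -0.42, Kcnj10 at -0.23 and Kcnj9 at -0.18. The order therefore depends on the scale of the rows. For 0 of the 7 did the shares of neurons differ by 20 percentage points or more, as they did for 8.7% of the genes tested. The largest gap was that of Kcnn2, 14.6 points higher in pLSOs, and the next that of Kcnj3, 12.9 points higher in LOCs. Among the neurons with at least 2000 genes this order turned, the gap of Kcnj3 being 20.5 points and past the limit, as for 12.6% of the genes tested there, and that of Kcnn2 11.4 points. A read was worth more TPM in LOCs than in pLSOs, for Kcnn2 0.0582 against 0.0388 TPM in the median library of each class. About 8.60 reads were enough for a listed value of Kcnn2 in a LOC and 12.9 in a pLSO, and the part of this gap in the differences was not tested.

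**Figure D5:**
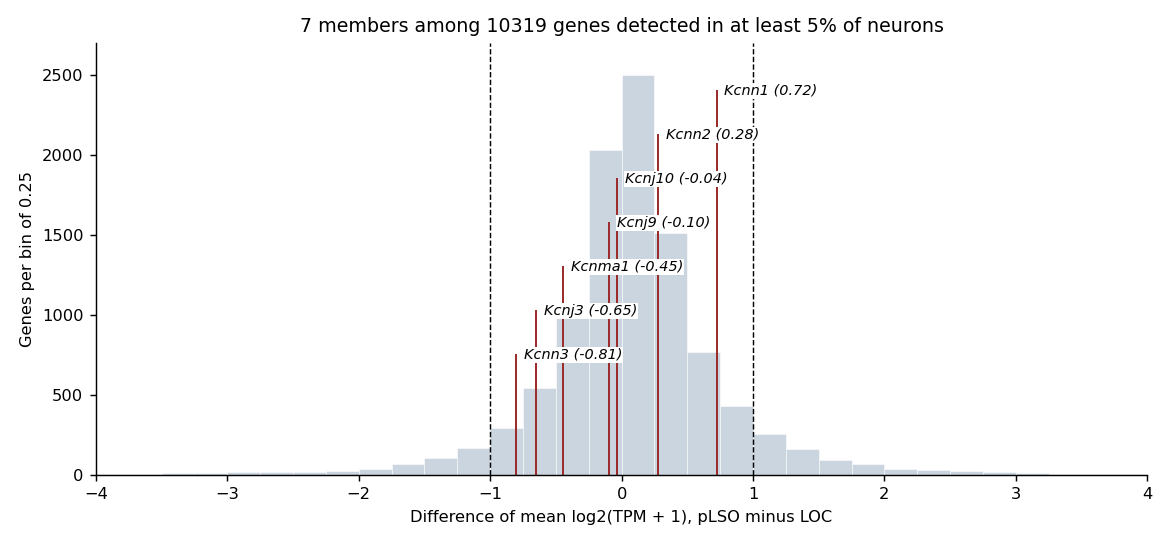
Mean log2(TPM + 1), as deposited, of pLSOs less that of LOCs for 10319 genes in bins of 0.25 (grey bars) and for 7 members (red lines, with their values); dashed lines mark a difference of 1, and 23 genes lie beyond the axis. All 7 members lie between the dashed lines, from -0.81 for Kcnn3 to 0.72 for Kcnn1.

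Within the pLSOs 5 members could be set against all genes, and 1 of them, Kcnn1, passed a difference of 1. Its mean log2(TPM + 1) was 1.05 in Onset cells and 0 in Sustained cells, at percentile 95.6 of 10012 genes, of which 15.6% differed by 1 or more and 4.92% with the higher mean in Onset cells. The difference rests on 4 of 41 Onset cells, and it was 0.98 with all labelled cells and 0.62 on the own-length scale, both under 1. Kcnj3 was 0.52 higher in Onset cells, Kcnj9 was 0.15 higher, Kcnj10 differed by -0.04 and Kcnn2 by -0.33. Kcnn3 was found in too few pLSOs for this comparison, and its difference of -1.13 is given as a value only. With 11 Sustained cells the exact interval for a share reaches from 10.9 to 69.2% for Kcnn2, so that its share could not be told apart from the 26.8% of Onset cells at this number of neurons.

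Other channels of the same classes were mostly listed at 0. Of 17 further calcium-, sodium-activated and inward rectifier channel genes, 12 were listed at 0 in every neuron, among them Kcnn4, Kcnj2 and Kcnj4. Kcnn4, Kcnj2 and Kcnj4 stand in rows 15833, 12361 and 13122. In the nearby rows of Kcnn2 (15870) and Kcnj6 (12872), up to about 10.2 and 6.90 reads could be listed as 0. A 0 for these genes therefore does not show absence. The sodium-activated channel genes Kcnt1 and Kcnt2 were found most often, Kcnt1 in 8 pLSOs and 5 LOCs with means of 1.46 and 1.54 TPM (1.14 and 0.704 without the highest neuron of each class), and Kcnt2 in 5 pLSOs and 4 LOCs. Of 5 BK partner genes, Lrrc55 was found in 2 LOCs and Lingo1 in 1 pLSO and 2 LOCs, and the other 3 were at 0.

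Genes that act on these channels or assemble with them were found in anything from 0 to 80 neurons. Of 57 genes in the lists of channels, partners and regulators, 29 passed the 5% filter, and 2 were called higher in pLSOs and 2 higher in LOCs, a count near the 11.7% of all genes tested, with a median difference of 0.04. Among the calcium channels that can supply SK and BK channels, Cacna1b (N-type) was 1.22 higher in pLSOs in mean log2(TPM + 1) and found in 21 of 52 pLSOs and 7 of 28 LOCs. Its mean TPM lay the other way, at 334 in pLSOs and 389 in LOCs, and at 259 and 164 without the highest neuron of each class. Cacna1a (P/Q-type) was found in 28 pLSOs and 7 LOCs, with a difference just under the limit. Cacna1e (R-type) differed by -5.77, its LOC mean being 1511 TPM and its pLSO mean 196 TPM (1149 and 63.9 without the highest neuron), and it was found in 13 pLSOs and 21 LOCs. The calmodulin genes Calm2 and Calm3, whose product is the calcium sensor of SK channels, were found in 52 and 47 pLSOs and in 28 and 23 LOCs, and in 7 and 6 controls. The 8 genes of the SK complex list had a median difference of 0.03, and none passed 1.

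Of 17 receptor and regulator genes of GIRK channels, 13 could be set against all genes, and 1 passed a difference of 1 in each direction, beside 6.99% of all genes tested that were higher in pLSOs and 4.68% that were higher in LOCs, so that these counts do not set the list apart. Chrm2, the muscarinic M2 receptor, was found in 1 pLSO and 10 LOCs, with a difference of -1.06. Adora1, the adenosine A1 receptor, was found in 2 pLSOs and 8 LOCs, with a difference of -0.84. The GABA-B receptor genes Gabbr1 and Gabbr2 were found in both classes, Gabbr1 in 22 pLSOs and 12 LOCs with means of 26.5 and 23.0 TPM, which fell to 20.5 and 8.26 TPM without the highest neuron of each class. Snx27, which sorts GIRK channels, was 1.00 higher in pLSOs, where it was found in 18 neurons against 7 LOCs. The G protein gene Gng2 was found in 5 pLSOs and 10 LOCs, with a difference of -0.68, and Gnb1 in 47 pLSOs and 24 LOCs. Levels of these genes are on the deposited scale and were compared between classes only, never between genes.

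Correlations with 5 recorded features were computed for Kcnn2 in pLSOs and Kcnj3 in LOCs, the members found in at least 20% of the class, and all 10 Spearman values lay between -0.286 and 0.189. Within the 52 pLSOs the Spearman correlation of Kcnn2 with the resting potential was -0.122, with input resistance -0.177, with sag amplitude -0.156, with rheobase 0.0757 and with action potential halfwidth -0.207. For Kcnj3 over the 28 LOCs the values were 0.189 with sag amplitude, 0.121 with rheobase and -0.286 with halfwidth, and 0.0400 with input resistance over 27 LOCs and -0.281 with the resting potential over 19 LOCs. These are descriptions of sparse values, in which 15 pLSOs and 9 LOCs carry the gene. The 4 Onset neurons with Kcnn1 had sag amplitudes of 8.6, 10.8, 12.8 and 13.9 mV, all above the Onset median of 7.3 mV and within its range of 1.8 to 15.5 mV. Their input resistances of 26.1 to 71.3 MOhm lay within the Onset range of 16.7 to 139.1 MOhm. Their resting potentials (-72.6 to -60 mV) and rheobases (350 to 700 pA) fell on both sides of the Onset medians of -64.7 mV and 500 pA. So did their halfwidths (0.32 to 0.70 ms), beside a median of 0.36 ms. The 3 LOCs with Kcnn3 had input resistances of 342.7, 686.7 and 763.8 MOhm, in a LOC range of 58.8 to 903.9 MOhm. The 4 LOCs with Kcnma1 had halfwidths of 0.87, 1.48, 1.74 and 1.97 ms, beside a LOC median of 1.12 ms. The 2 Onset cells with Kcnma1 had 0.21 and 0.31 ms, beside an Onset median of 0.36 ms.

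For the most widespread members, the genes most alike over the 80 neurons were sought among 4779 genes found in at least 20% of neurons. For Kcnn2 these were Mamdc4 (Pearson 0.547 of log2(TPM + 1), 9 neurons with both), Crk (0.435) and Nup214 (0.418). For Kcnj3 they were Samhd1 (0.449, 9 neurons with both), Adipor1 (0.441) and Pigp (0.425). The points share depth and many zeros, and these coefficients are the highest among all these candidates.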

How the data were processed

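Libraries were made from pipette-harvested cytoplasm with an adapted Smart-seq2 method, which does not keep strand. Per the labels, the authors trimmed reads (Trim Galore 0.4.2), aligned them to mm10 with STAR, marked duplicates (Picard 1.115) and counted them per gene with featureCounts. The deposited score values are TPM that the authors made from gene length and depth and rounded to whole numbers, with library totals from 999773 to 1000026 TPM. Electrophysiological values were copied from the sample labels. Read counts were not used here.

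Symbols, positions and lengths came from Gencode vM21 (GRCm38), in which 37570 of 38887 identifiers were found. The study names an earlier release. The TPM unit of each library was estimated from the smallest steps of the first rows, with a tolerance of 0.5 TPM, and the length behind each row from these steps or from all gene lengths sorted in ascending order less 80 bases. In 13 of 15 windows between rows 2500 and 9500 the measured step lay within 15% of that length. The 80 bases were set from the measured steps, so this match is no independent check. The windows at rows 6500, 7500, 8000 and 9000 held 2 libraries each. Estimated reads are TPM times row length over the unit, and own-length TPM are these reads per kilobase of the gene, scaled to a common library total. A value listed as 1 TPM can stand for 0.5 to 1.5 TPM, and its reads are as uncertain. The steps were tested on simulated libraries. The pore stretches of some members are not reported here.

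A gene was detected at 1 TPM or more. Shares have exact Clopper-Pearson 95% intervals, and 0 of n allows 3 of n. The labels name no animals, so no test was made. Differences of mean log2(TPM + 1) were set beside those of all genes detected in at least 5% of neurons, and called at 1 or more. The 8 libraries were left out after an earlier comparison of these data with the study's published values, which was not repeated. The members and lists were chosen with earlier results of these data known. Named genes were the 10 members, list genes detected in at least 20% of pLSOs or LOCs, and the 3 genes most correlated with each member found in at least 20% of neurons. Some list genes that this rule names enter only the counts, and other list genes were named after their values were seen. Alternatives were other thresholds, pseudocounts of 10 and 0.1, all labelled libraries, neurons with at least 2000 genes and own-length values. Calculations used Python 3.11.15, pandas 2.3.3, NumPy 2.4.6 and SciPy 1.17.1, and figures matplotlib 3.10.9.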

Additional observations from a re-analysis of the deposited data

Results flagged for a closer look

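Kcnj10 and Kcnma1 stood out in the negative controls, where the same library held 17 TPM of Kcnj10 and 3 TPM of Kcnma1 while the other 7 were at 0, which put its value far from the rest. These 2 were found among 10 members looked at, and both come from the same library. Chance alone marks about 1 group in 20 by this criterion, but with 7 of 8 libraries at 0 any single listed value meets it, so it says no more than that 1 library had a value. The control had 325 detected genes, the reads behind its values were 11.3 and 3.65, and the cause was not tested.

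Among the neurons left out of the comparisons, members were listed above every control in 3. Kcnn2 had 1 TPM in a neuron labelled Sustained, Kcnmb4 had 1 TPM in a neuron labelled Onset, and Kcnj9 had 1 TPM in another labelled Onset. These values lie in the range of the neurons used.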

How the results depend on the processing

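No paired analysis was possible because the replicate numbers only count neurons in accession order and no test was made. Among 21 recomputed values of the main counts, 19 lay within 1.5 times the count or 1 SD over neurons, and 2 did not. One was the number of members at least 1 higher in LOCs, which was 0 and became 2 (Kcnn3 and Kcnj3) with a pseudocount of 0.1, and stayed at 0 with a pseudocount of 10, without the filter on low values, with all labelled libraries and on both own-length scales. With a pseudocount of 10 the difference of Kcnj10 between pLSOs and LOCs was 0.02 in place of -0.04. At 10 TPM the share of pLSOs with Kcnn2 fell from 28.8 to 3.85%, while 10 estimated reads left it at 28.8%. The mean number of members per neuron fell at 10 TPM from 0.788 to 0.385 in pLSOs and from 1.04 to 0.536 in LOCs, both within 1 SD. In the 44 pLSOs and 22 LOCs with at least 2000 genes Kcnj3 was in 20.5 and 40.9%, and Kcnn2 in 29.5 and 18.2%. The number of members whose shares differed by 20 points or more thereby became 1 (Kcnj3) in place of 0, a setting chosen for this count after seeing the data, and it stayed at 0 at 10 TPM and with all labelled libraries. Of 230 other recomputed values 20 moved, 12 of them ranks of members by level and 8 shares, 6 of the latter at 10 TPM. No mean TPM and no difference counted as moved. The SD over neurons exceeds the means of the members, so a mean could hardly pass it. The pLSO mean of Kcnn3 fell from 7.15 to 0.294 TPM without its highest neuron and counted as unmoved. So did the Kcnn1 difference between Onset and Sustained cells, 1.05 as deposited and 0.62 on the own-length scale. The unmoved means and differences therefore do not show stability. Depth limits every 0, rounding adds to this for all members but Kcnn1 and Kcnn3, and the means of Kcnn1, Kcnn3 and the BK genes rest on 1 to 4 neurons of a class.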
